A study of Mus musculus with 8 samples.

Results

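The genes described here are 9 members of the interleukin-1 (IL-1) family and its receptors, chosen by name: Il1a, Il1b, Il1rn, Il18, Il33, Il1f6, Il1f9, Il1r2 and Il1rl2. They are 9 of the 25466 genes in the count table, matched to mouse GENCODE symbols by Ensembl identifier. Of the 9, 8 passed the filter on low counts and were tested, and Il18 did not. RNA was sequenced from medullary thymic epithelial cells (mTECs), the thymic cells that display tissue-restricted self-antigens to developing T cells. The cells came from wild-type (wt) mice, named BL6N6 in the study's methods, aged 4 to 6 weeks with no treatment named, and were sorted as live single cells that were CD45neg, EpCAMpos and CDR1neg. They were then divided by surface Tspan8, a tetraspanin used as an example self-antigen, and by surface MHCII into Tspan8negMHCIIlo, Tspan8negMHCIIhi, Tspan8posMHCIIhi and Tspan8posMHCIIlo subsets, with 2 libraries called biological replicates per subset. How many mice went into a library, and whether libraries with the same number share mice, is not given in the sources used here, so p-values measure the spread between these libraries.

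The IL-1 family comprises secreted or released signals, their receptors and a set of natural inhibitors. IL-1α and IL-1β act through Il1r1 with the accessory chain Il1rap, Il1rn encodes the receptor antagonist that occupies Il1r1 without signalling, and Il1r2 encodes a decoy receptor that binds IL-1 and does not signal. Il1f6 and Il1f9 encode IL-36α and IL-36γ, epithelial cytokines that act through Il1rl2 with Il1rap, and Il1f5 encodes the antagonist of that receptor. Il33 and Il18 encode alarm cytokines of barrier epithelia that act through Il1rl1 and Il18r1. Receptor binding leads through the adaptor Myd88 and the Irak kinases to NF-kB and to chemokine genes. RNA levels do not give the amount of active cytokine for any of the ligands, and Il1b and Il18 proteins, for example, need cleavage.

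The 4 promoters shown belong to genes whose RNA differed with Tspan8 in both MHCII states, as described below. They are RefSeq promoter sequences of build GRCm38.p6, printed 5′ to 3′ on the strand of the gene up to the base before the first start site in the table. The table held 8 of the 9 members. The Il1rn window ends at the GENCODE gene start, a few bases ahead of the RefSeq start site from which positions are counted. Capitals mark a match, on either strand, to a motif that was searched in every promoter of the table. In Il1rn they mark the AP-1 letters TGANTCA, bound by Fos and Jun factors. In Il1f9 they mark GGAAGT, the core of sites for factors of the Ets family, which are known from epithelial cells. In Il33 and Il1rl2 they mark the TATA box letters TATAAA.
Il1rn chr2:24336610-24336852, plus strand: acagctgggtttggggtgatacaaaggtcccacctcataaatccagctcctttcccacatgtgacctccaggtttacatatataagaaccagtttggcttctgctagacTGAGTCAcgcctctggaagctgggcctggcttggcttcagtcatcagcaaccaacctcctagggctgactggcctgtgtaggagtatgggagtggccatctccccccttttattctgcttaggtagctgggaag
Il1f9 chr2:24186226-24186475, plus strand: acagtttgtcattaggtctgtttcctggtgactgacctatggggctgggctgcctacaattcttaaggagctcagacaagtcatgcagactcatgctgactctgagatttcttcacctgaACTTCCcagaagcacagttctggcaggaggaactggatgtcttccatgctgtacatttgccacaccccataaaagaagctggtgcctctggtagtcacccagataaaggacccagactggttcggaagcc
Il33 chr19:29924863-29925112, plus strand: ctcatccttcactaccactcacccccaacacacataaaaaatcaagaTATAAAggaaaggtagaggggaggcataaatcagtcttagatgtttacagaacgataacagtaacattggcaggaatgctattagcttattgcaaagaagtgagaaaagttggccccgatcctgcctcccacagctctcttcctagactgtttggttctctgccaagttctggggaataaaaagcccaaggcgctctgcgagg
Il1rl2 chr1:40324339-40324588, plus strand: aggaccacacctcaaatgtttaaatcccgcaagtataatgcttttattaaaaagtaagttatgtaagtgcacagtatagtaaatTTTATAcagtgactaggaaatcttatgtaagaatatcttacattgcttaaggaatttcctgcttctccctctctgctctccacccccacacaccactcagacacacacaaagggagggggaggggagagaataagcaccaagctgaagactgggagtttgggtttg

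Counted from the start site, the first base of the match lay at -141 in Il1rn, -130 in Il1f9, -203 in Il33 and -166 in Il1rl2. Il33 and Il1rn had further start sites, whose windows are not printed. Another Il33 window, from position 29945540, held the TATA letters at -29 from its own start site. Only the TATA letters occurred in more than 1 of the 4 windows. Among 32851 promoters of the RefSeq table, the AP-1 letters were present in 6.75%, the Ets letters in 19.7%, the TATA letters in 12.4% and the NF-kB consensus in 7.25% of windows of 250 bases. None of the 4 windows held the NF-kB consensus, which says only that these letters are not in these windows. In a window of Il1r2, the member that was lower in Tspan8pos cells, the Ets letters lay at -103. A match is a string of letters and was not tested as a site. Il1f6 was not in the table.

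Levels are given as CPM, a share of the library total with totals scaled by the trimmed mean of M-values, and genes are compared with each other only per kilobase of exon. Library totals ran from 1941518 to 7783841 counts, and 3 counts, taken as the floor, corresponded to 0.385 to 1.65 CPM, which covers counting error only. The sorted label was visible in the RNA, with Tspan8 between 3.65 and 14.6 CPM in the 4 Tspan8neg libraries and between 347 and 404 CPM in the 4 Tspan8pos libraries. Epcam was between 367 and 1081 CPM, and the MHCII gene H2-Ab1 was at 2074 and 1700 CPM in Tspan8negMHCIIlo, not far below the 2431 and 2619 CPM of Tspan8posMHCIIhi. H2-Ab1 was at 4988 and 5098 CPM in Tspan8negMHCIIhi and at 518 and 489 CPM in Tspan8posMHCIIlo. At either sorted MHCII level, H2-Ab1 RNA was thus lower in Tspan8pos than in Tspan8neg libraries. Of 8 mTEC markers none was at 0 in any library, with sums of 6058 to 11311 CPM. T cell genes stood apart in the Tspan8negMHCIIlo libraries, where 8 markers summed to 282 and 852 CPM against 56.6 to 144 CPM elsewhere. Differences were tested with edgeR's quasi-likelihood test over 17006 genes, and a call needed a Benjamini-Hochberg adjusted p under 0.01 and a change of 1 log2 unit or more in either direction. With 2 libraries against 2, no exact permutation test can give a p under 0.05, and single genes were not tested that way. How often the libraries of all tested genes do not overlap is not given, so a lack of overlap is a description only. In sorted bulk RNA, more cells expressing a gene and more RNA per cell cannot be told apart.

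The first question was how the Tspan8pos cells differed from Tspan8neg cells of the same sorted MHCII level. H2-Ab1 RNA was not equal within a level, as given above. Among MHCIIlo mTECs, 6 of the 8 tested members were called by edgeR, 5 higher and 1 lower in Tspan8pos, where 21.7% of all tested genes were called (12.2% higher, 9.49% lower). Among MHCIIhi mTECs the same 6 members were called in the same directions, beside 18.8% of all tested genes (11.1% higher, 7.73% lower). The 5 higher were Il1rn, Il33, Il1f6, Il1f9 and Il1rl2, and the 1 lower was Il1r2. The median log2 fold change of the 8 members was 2.88 in MHCIIlo and 1.32 in MHCIIhi, against -0.03 for all tested genes in each. The 6 members kept their call in all 102 alternative values of each contrast. These include the looser limits (an adjusted p under 0.05, no fold limit), which cannot end a call.

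**Figure D1:**
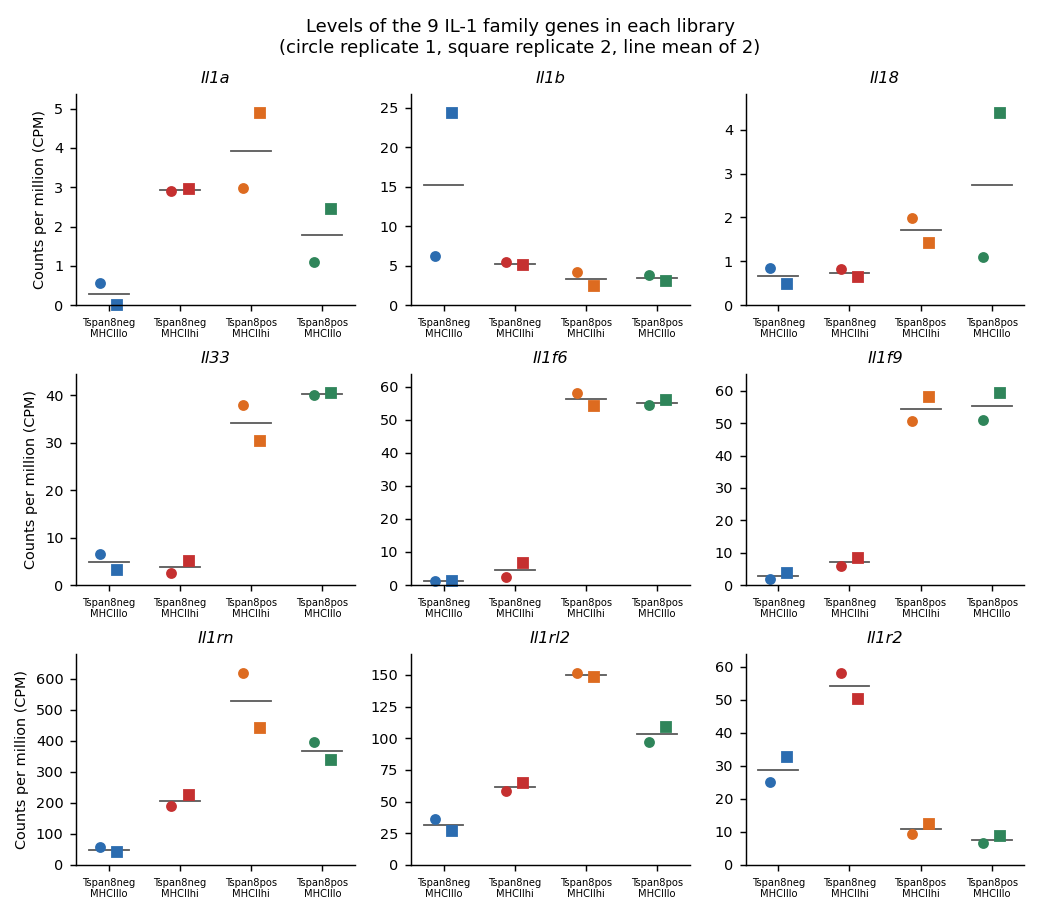
Level of each of the 9 members in CPM (vertical axes, each panel on its own scale) in the 4 sorted subsets, with a circle for replicate 1, a square for replicate 2 and a line at the mean. Il33, Il1f6 and Il1f9 stand high in all 4 Tspan8pos libraries, Il1r2 stands high in the 4 Tspan8neg libraries, and Il1b stands apart in 1 Tspan8negMHCIIlo library.

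Of the 9 members, Il1f6 (IL-36α) showed the greatest change in both Tspan8 comparisons. Its level was 1.12 and 1.18 CPM in Tspan8negMHCIIlo, 2.29 and 6.79 CPM in Tspan8negMHCIIhi, 57.9 and 54.3 CPM in Tspan8posMHCIIhi, and 54.4 and 55.8 CPM in Tspan8posMHCIIlo. The lowest Tspan8pos library was thus far above the highest Tspan8neg library. Tspan8pos exceeded Tspan8neg by 5.55 ± 0.42 on the log2 scale in MHCIIlo (SE; edgeR adjusted p = 9.24e-07; 46.9-fold) and by 3.52 ± 0.31 in MHCIIhi (adjusted p = 3.26e-06; 11.5-fold). The Tspan8negMHCIIlo values rest on 4 and 5 counts. In MHCIIhi the 2 Tspan8neg libraries stood apart from each other, and the difference was 2.96 without the first and 4.53 without the second.

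Il1f9 (IL-36γ), which lies beside Il1f6 on chromosome 2, followed the same order. It was measured at 1.97 and 3.77 CPM in Tspan8negMHCIIlo, 5.82 and 8.20 CPM in Tspan8negMHCIIhi, 50.6 and 58.1 CPM in Tspan8posMHCIIhi, and 51.1 and 59.2 CPM in Tspan8posMHCIIlo. No Tspan8neg library overlapped with a Tspan8pos library. The difference was 4.24 ± 0.29 in MHCIIlo (edgeR adjusted p = 2.31e-07; 18.9-fold) and 2.92 ± 0.24 in MHCIIhi (adjusted p = 1.09e-06; 7.56-fold). Between the 2 Tspan8pos subsets neither IL-36 ligand was called, with log2 differences of MHCIIhi from MHCIIlo of 0.02 ± 0.26 for Il1f6 (edgeR adjusted p = 0.971) and -0.04 ± 0.21 for Il1f9 (adjusted p = 0.935).

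Il33, a nuclear alarm cytokine of epithelia, rose with Tspan8 by almost the same amount in both MHCII states. The level was 6.46 and 3.07 CPM in Tspan8negMHCIIlo, 2.50 and 5.13 CPM in Tspan8negMHCIIhi, 37.8 and 30.3 CPM in Tspan8posMHCIIhi, and 40.1 and 40.4 CPM in Tspan8posMHCIIlo. All Tspan8pos libraries lay above all Tspan8neg libraries. The log2 fold change was 3.10 ± 0.35 in MHCIIlo (edgeR adjusted p = 1.68e-05; 8.6-fold) and 3.08 ± 0.33 in MHCIIhi (adjusted p = 1.19e-05; 8.46-fold), and the difference between them was 0.02 ± 0.52 (adjusted p = 0.997). Without Tspan8negMHCIIlo replicate 1 the first value was 3.70, and without Tspan8negMHCIIhi replicate 2 the second was 3.68. With an error of this size, unequal effects of more than 1 log2 unit could have gone uncalled. In the same test Il1f6, at 2.03 ± 0.61, was not called. MHCII state gave no call for Il33, with -0.22 ± 0.41 in Tspan8neg (adjusted p = 0.704) and -0.24 ± 0.28 in Tspan8pos (adjusted p = 0.629).

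The IL-1 agonist genes had few counts and were not called by the edgeR fit of all 8 libraries in either Tspan8 comparison. Il1a was at 0.562 and 0 CPM in Tspan8negMHCIIlo, 2.91 and 2.95 CPM in Tspan8negMHCIIhi, 2.99 and 4.88 CPM in Tspan8posMHCIIhi, and 1.10 and 2.46 CPM in Tspan8posMHCIIlo. These values rest on 2 counts in all in Tspan8negMHCIIlo and on at most 24 in a library. From the summed counts, Tspan8pos over Tspan8neg was 8.53 in MHCIIlo, with an exact counting interval of 2.07 to 75.3 at 95% confidence, and 1.34 in MHCIIhi, with an interval of 0.83 to 2.16. edgeR gave an adjusted p of 0.0401 and 0.633 for these comparisons. Reads of Il1a could include those of Gm14023 on the opposite strand, and reads of Il1b those of Il1bos, also on the opposite strand.

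Il1b was lower in the Tspan8pos libraries without a call, and the size of its difference in MHCIIlo rested on 1 library. Its level was 6.18 and 24.3 CPM in Tspan8negMHCIIlo, 5.41 and 5.13 CPM in Tspan8negMHCIIhi, 4.18 and 2.44 CPM in Tspan8posMHCIIhi, and 3.85 and 3.0 CPM in Tspan8posMHCIIlo. All 4 Tspan8pos libraries lay below all 4 Tspan8neg libraries, and the second Tspan8negMHCIIlo library, with 103 counts against 22 in the first, stood apart. Tspan8pos differed from Tspan8neg by -2.23 ± 0.60 in MHCIIlo (edgeR adjusted p = 0.0114) and by -0.66 ± 0.59 in MHCIIhi (adjusted p = 0.412). Without that library the MHCIIlo difference was -0.91 (adjusted p = 0.216), and without the first it was -2.90 and called (adjusted p = 8.14e-06). It was also called with the replicate block (-2.22, adjusted p = 0.0077), with DESeq2 (-2.19, adjusted p = 0.00797) and with no filter on low counts (-2.19, adjusted p = 0.00319).

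Ptprc and the summed T cell markers were highest in the same library. Ptprc, which encodes CD45, was at 205 CPM there and at 89.3 CPM in the other Tspan8negMHCIIlo library, against 11.9 to 72.9 CPM in the remaining 6. The T cell receptor chain gene Cd3e was at 121 and 34.8 CPM in these 2 libraries and at 2.59 to 6.96 CPM in the others. Myeloid genes did not follow that order, since Lyz2 (lysozyme) was at 26.1 and 53.0 CPM in Tspan8negMHCIIlo and at 237 to 331 CPM in the MHCIIhi libraries. Summed over 10 monocyte, macrophage and neutrophil markers, of which 1 was at 0 in each Tspan8negMHCIIlo library, the level was 140 and 310 CPM in Tspan8negMHCIIlo, 463 to 537 CPM in Tspan8negMHCIIhi, 505 to 535 CPM in Tspan8posMHCIIhi and 274 to 292 CPM in Tspan8posMHCIIlo. The part of leukocytes in the Il1b values was not tested.

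**Figure D2:**
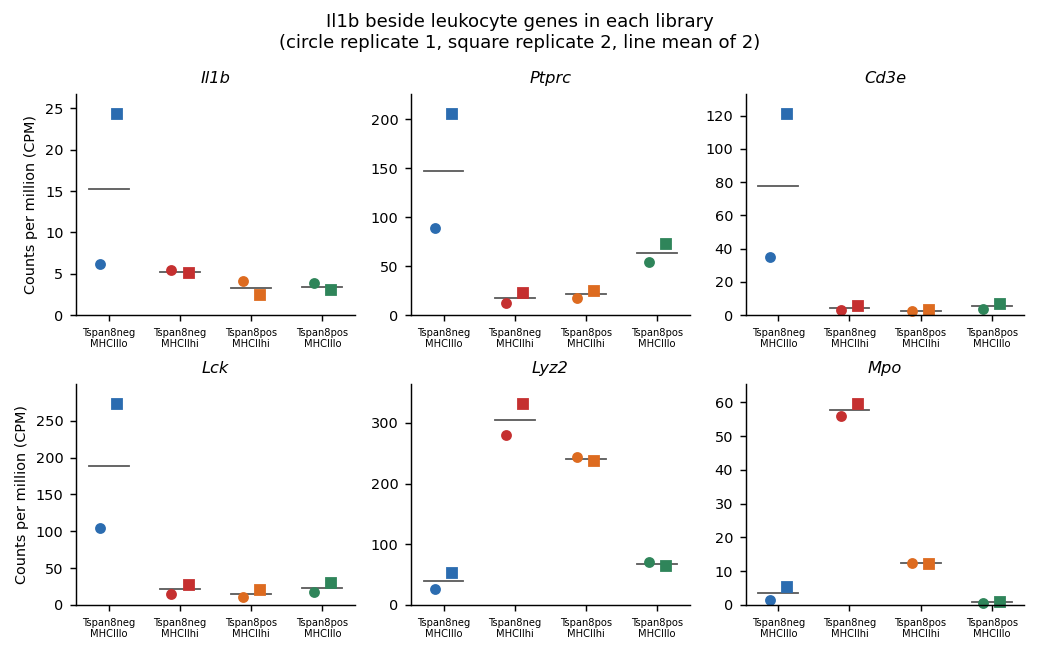
Il1b beside 5 leukocyte genes (Ptprc, Cd3e, Lck, Lyz2 and Mpo) in CPM in each of the 8 libraries, with a circle for replicate 1 and a square for replicate 2. The Tspan8negMHCIIlo library with 24.3 CPM of Il1b also has the highest Ptprc, Cd3e and Lck values, whereas Lyz2 and Mpo are highest in the Tspan8negMHCIIhi libraries.

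Il18 reached at most 4.37 CPM and did not pass the filter. Its counts were 3 and 2 in Tspan8negMHCIIlo, 4 and 5 in Tspan8negMHCIIhi, 10 and 7 in Tspan8posMHCIIhi, and 2 and 32 in Tspan8posMHCIIlo, so 1 library held most of the signal of its subset. The ratio of Tspan8pos to Tspan8neg from summed counts was 5.8 in MHCIIlo (exact 95% counting interval 2.26 to 19.0) and 2.4 in MHCIIhi (1.01 to 6.1). The 2 Tspan8posMHCIIlo libraries, at 1.10 and 4.37 CPM, differed from each other by more than the Tspan8neg and Tspan8pos means in MHCIIhi did. Bco2 and Tex12 overlap this gene on chromosome 9.

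Per kilobase of exon, the IL-1 receptor antagonist gene Il1rn had the highest mean of the members in the 3 subsets other than Tspan8negMHCIIlo, at 37.4, 95.7 and 66.5 CPM per kb in Tspan8negMHCIIhi, Tspan8posMHCIIhi and Tspan8posMHCIIlo. Il1f6 came next in the Tspan8pos subsets, at 63.5 and 62.4 CPM per kb, and was above Il1rn in Tspan8posMHCIIlo replicate 2 (63.2 against 61.2 CPM per kb). Il1r2 led in Tspan8negMHCIIlo at 15.1 CPM per kb. The level of Il1rn was 56.2 and 41.5 CPM in Tspan8negMHCIIlo, 189.9 and 224.7 CPM in Tspan8negMHCIIhi, 619 and 440.3 CPM in Tspan8posMHCIIhi, and 397 and 339 CPM in Tspan8posMHCIIlo. The subsets did not overlap, and each Tspan8pos library was above each Tspan8neg library. Tspan8pos exceeded Tspan8neg by 2.91 ± 0.21 in MHCIIlo (edgeR adjusted p = 6.27e-07; 7.54-fold) and by 1.35 ± 0.19 in MHCIIhi (adjusted p = 0.000156; 2.55-fold). The Tspan8 effect was called as different between the MHCII states for 5.39% of all tested genes (2.79% with a positive and 2.6% with a negative difference). Il1f6 at 2.03 ± 0.61 (edgeR adjusted p = 0.0486) and Il1f9 at 1.32 ± 0.40 (adjusted p = 0.0488) had positive differences without a call. Il1rn was the only member called, at 1.56 ± 0.27 (adjusted p = 0.00366). That call was lost without Tspan8negMHCIIhi replicate 2 (1.50, adjusted p = 0.0162), Tspan8posMHCIIhi replicate 2 (1.33, 0.0193), Tspan8posMHCIIlo replicate 1 (1.41, 0.0226) or Tspan8posMHCIIlo replicate 2 (1.67, 0.017), while the sign stayed.

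**Figure D3:**
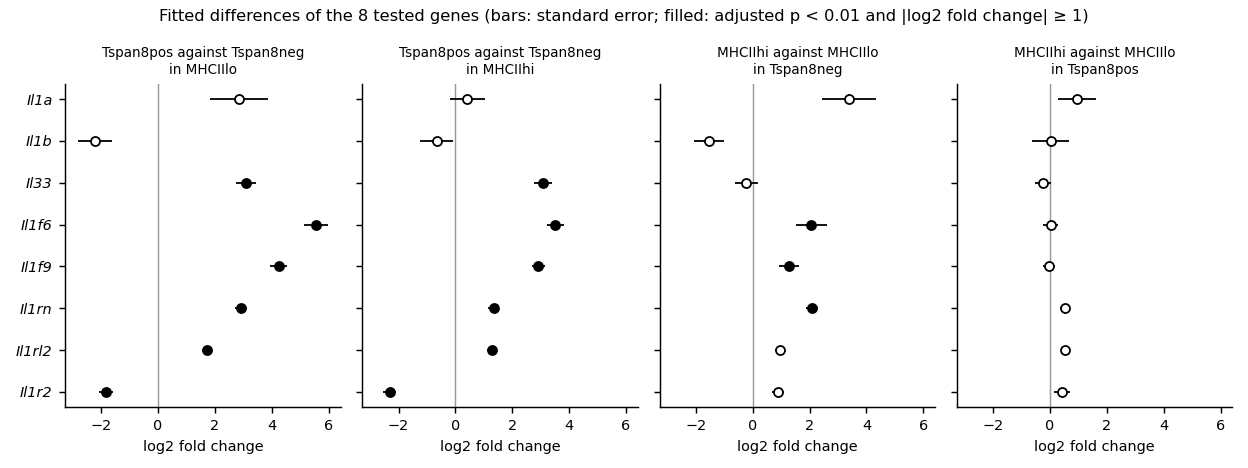
Log2 fold change of the 8 tested members in the 4 comparisons of subsets, with bars for the standard error from edgeR and filled points for members that were called. Il1rn, Il33, Il1f6, Il1f9 and Il1rl2 lie above 0 and Il1r2 below 0 in both Tspan8 comparisons, and no point is filled for MHCIIhi against MHCIIlo in Tspan8pos.

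Of the receptors, Il1rl2, the binding chain for IL-36, was higher in the Tspan8pos subsets, like its ligands, but by less. It was measured at 36.5 and 27.1 CPM in Tspan8negMHCIIlo, 58.0 and 65.0 CPM in Tspan8negMHCIIhi, 151 and 148 CPM in Tspan8posMHCIIhi, and 97.3 and 108.8 CPM in Tspan8posMHCIIlo. The libraries of the 4 subsets did not overlap, but edgeR called no step between neighbouring levels. The log2 fold change with Tspan8 was 1.71 ± 0.17 in MHCIIlo (edgeR adjusted p = 5.48e-06; 3.27-fold) and 1.28 ± 0.16 in MHCIIhi (adjusted p = 3.32e-05; 2.43-fold). Gm17970, a processed pseudogene on the same strand, overlaps the gene and could share reads with it.

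Il1r2, the decoy receptor for IL-1, was the only member called lower in the Tspan8pos subsets. Its level was 25.0 and 32.5 CPM in Tspan8negMHCIIlo, 58.0 and 50.2 CPM in Tspan8negMHCIIhi, 9.36 and 12.4 CPM in Tspan8posMHCIIhi, and 6.60 and 8.74 CPM in Tspan8posMHCIIlo. The highest Tspan8pos library was below the lowest Tspan8neg library. Il1r2 fell by 1.83 ± 0.25 in MHCIIlo (edgeR adjusted p = 9.06e-05) and by 2.31 ± 0.23 in MHCIIhi (adjusted p = 5.31e-06) on the log2 scale. The Tspan8pos level was 0.281 and 0.202 times that of Tspan8neg. Gm16894 on the opposite strand and Gm37347 on the same strand overlap Il1r2 and could share reads with it.

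The second question was how MHCIIhi cells differed from MHCIIlo cells of the same Tspan8 state. Within Tspan8neg, 3 members were called by edgeR, all higher in MHCIIhi, beside 23.0% of all tested genes (13.3% higher, 9.62% lower), and the member median was 1.12 against -0.04 for all tested genes. Il1rn rose by 2.09 ± 0.20 (adjusted p = 9.84e-06; 4.26-fold), Il1f6 by 2.06 ± 0.54 (adjusted p = 0.00915; 4.16-fold) and Il1f9 by 1.28 ± 0.34 (adjusted p = 0.00869; 2.43-fold). Il1rn kept its call when any 1 library was left out. The calls of both IL-36 ligands ended without Tspan8negMHCIIhi replicate 2, at 1.06 for Il1f6 (adjusted p = 0.216) and 1.07 for Il1f9 (adjusted p = 0.0811). They also ended without any 1 of the 4 Tspan8pos libraries, which add to the estimate of the spread (adjusted p of 0.0187 to 0.0201 for Il1f6 and 0.0141 to 0.0162 for Il1f9). Without Tspan8negMHCIIlo replicate 1 the adjusted p was 0.0269 for Il1f6 and 0.0585 for Il1f9, and without replicate 2 of that subset it was 0.0339 for Il1f6.

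Both receptors rose within Tspan8neg by less than the fold limit, Il1r2 by 0.90 ± 0.21 (edgeR adjusted p = 0.00386) and Il1rl2 by 0.96 ± 0.17 (adjusted p = 0.000578). The agonist genes differed in opposite directions without a call. For Il1a the ratio of summed counts was 11.4, with an exact 95% counting interval of 2.95 to 98.0 on 37 against 2 counts, and edgeR gave an adjusted p of 0.0121. Il1b differed by -1.55 ± 0.53 (adjusted p = 0.0356), and by -0.24 (adjusted p = 0.743) without the Tspan8negMHCIIlo library that held 103 counts. Without the other Tspan8negMHCIIlo library both were called, Il1b at -2.21 (adjusted p = 6.87e-05) and Il1a with an adjusted p of 0.00343.

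Within Tspan8pos, no member was called between MHCIIhi and MHCIIlo, beside 7.51% of all tested genes (4.83% higher, 2.69% lower). With edgeR, 2 members had an unadjusted p under 0.05, and DESeq2 gave 0 calls with 2 members under 0.05. These 2 were Il1rn at 0.53 ± 0.19 (edgeR adjusted p = 0.0765) and Il1rl2 at 0.53 ± 0.16 (adjusted p = 0.0324). Il1r2 stood at 0.42 ± 0.27 (adjusted p = 0.332), Il1b at 0.02 ± 0.65 (adjusted p = 0.992) and Il1a at 0.95 ± 0.68 (adjusted p = 0.39). The ratio of summed counts for Il1a was 1.79, with an exact 95% interval of 1.02 to 3.25 that covers counting error only. The member median was 0.22 against 0.01 for all tested genes.

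The remaining pairs of subsets share libraries with the comparisons above and are given for the order of levels. Between Tspan8posMHCIIlo and Tspan8negMHCIIhi, 4 members were called by edgeR beside 29.7% of all tested genes (14.7% higher, 15.0% lower): Il33 (3.32), Il1f6 (3.50) and Il1f9 (2.96) higher and Il1r2 (-2.74) lower in Tspan8posMHCIIlo. Il1rn at 0.82 (edgeR adjusted p = 0.0033) and Il1rl2 at 0.75 (adjusted p = 0.00157) were under the fold limit. Between Tspan8posMHCIIhi and Tspan8negMHCIIlo all 8 tested members were called, 6 higher and 2 lower, beside 24.9% of all tested genes (14.6% higher, 10.3% lower). The log2 fold changes for these were 5.57 for Il1f6, 4.20 for Il1f9, 3.44 for Il1rn, 2.86 for Il33, 2.24 for Il1rl2 and -1.41 for Il1r2. The 2 agonist calls there were Il1b (-2.21, edgeR adjusted p = 0.00797), and Il1a (adjusted p = 0.00509), whose ratio of summed counts was 15.3 (exact 95% counting interval 3.96 to 131.0). The call of Il1b ended without any library other than Tspan8negMHCIIlo replicate 1 (edgeR adjusted p of 0.0158 to 0.197, the last at -0.89 without Tspan8negMHCIIlo replicate 2) and with only the 4 libraries compared. That of Il1a ended without Tspan8negMHCIIlo replicate 2 (adjusted p = 0.026), either Tspan8negMHCIIhi library (0.0128 and 0.0126) or either Tspan8posMHCIIhi library (0.0128 and 0.0402), with DESeq2 and with only the 4 libraries compared.

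In order of level, Il1rn and Il1rl2 ran from Tspan8posMHCIIhi through Tspan8posMHCIIlo and Tspan8negMHCIIhi to Tspan8negMHCIIlo. For Il1rn only the step from Tspan8negMHCIIhi to Tspan8negMHCIIlo was called among neighbours, and for Il1rl2 no step was called. Il33, Il1f6 and Il1f9 formed an upper pair of Tspan8pos subsets between which edgeR made no call, above the Tspan8neg subsets. Between the 2 Tspan8neg subsets, Il1f6 and Il1f9 were called, with the losses given above, and Il33 was not called. Il1r2 ran from Tspan8negMHCIIhi through Tspan8negMHCIIlo to Tspan8posMHCIIhi and Tspan8posMHCIIlo, and the last pair gave no call.

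Per kilobase of merged exons, the antagonist gene was set against the agonist genes in each library. Il1rn divided by the sum of Il1a and Il1b gave 0.589 to 2.88 in Tspan8negMHCIIlo, 7.96 to 9.71 in Tspan8negMHCIIhi, 21.2 to 30.2 in Tspan8posMHCIIhi and 21.7 to 27.9 in Tspan8posMHCIIlo. The ratio was therefore below 3 in both Tspan8negMHCIIlo libraries and above 20 in all Tspan8pos libraries. With the length of the longest transcript in place of merged exons, Tspan8negMHCIIlo ran from 0.907 to 4.54 and the Tspan8pos libraries from 38.3 to 52.7, again with no overlap. The low Tspan8negMHCIIlo end is the library with high Il1b, Ptprc and T cell marker levels.

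For IL-36 the antagonist gene Il1f5 was divided by the sum of Il1f6, Il1f8 and Il1f9. The ratio was 0.127 to 0.449 in Tspan8negMHCIIlo, 0.233 to 0.265 in Tspan8negMHCIIhi, 0.303 to 0.329 in Tspan8posMHCIIhi and 0.396 to 0.439 in Tspan8posMHCIIlo. The spread of the first subset, which has few counts of these genes, covered the values of the other subsets, which did not overlap with each other. For the IL-1 receptors, the decoy Il1r2 divided by the signalling receptor Il1r1 was 1.02 to 2.31 in Tspan8negMHCIIlo, 2.49 to 3.08 in Tspan8negMHCIIhi, 0.226 to 0.311 in Tspan8posMHCIIhi and 0.198 to 0.234 in Tspan8posMHCIIlo. Decoy RNA was above receptor RNA per kilobase in 3 Tspan8neg libraries, about level with it in the first Tspan8negMHCIIlo library, and below it in the 4 Tspan8pos libraries, and with longest transcripts the ranges stayed on the same sides of 1.

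**Figure D4:**
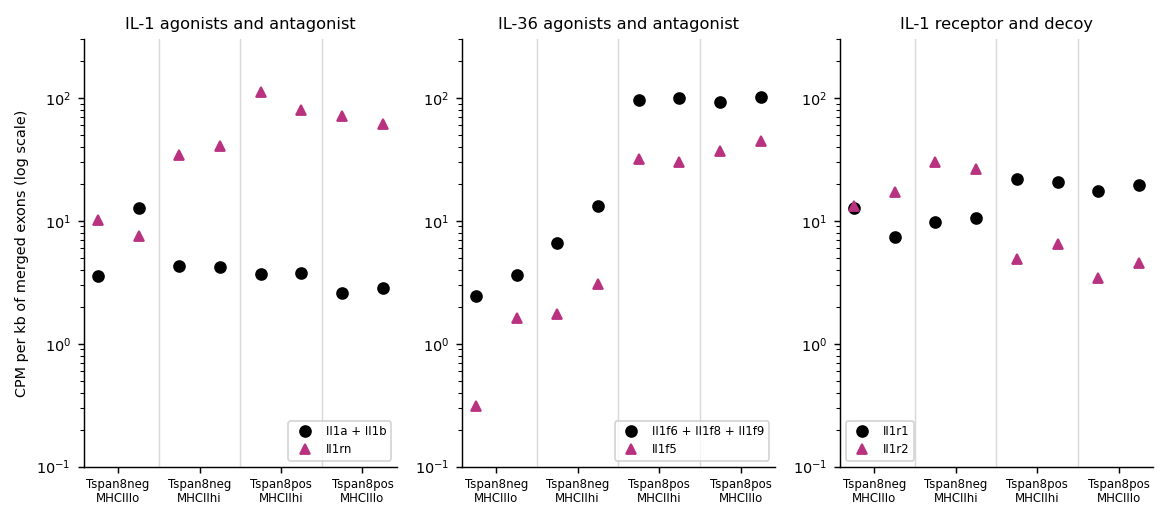
Levels in CPM per kilobase of merged exons on a log axis in each of the 8 libraries for agonists and antagonists of IL-1 (Il1a plus Il1b against Il1rn), of IL-36 (Il1f6, Il1f8 and Il1f9 against Il1f5) and for the signalling receptor Il1r1 against the decoy Il1r2. Il1rn lies above the agonists in every library but Tspan8negMHCIIlo replicate 2. The ratios are 0.589 to 9.71 in the Tspan8neg and 21.2 to 30.2 in the Tspan8pos libraries. Il1r2 changes from above to below Il1r1 between the Tspan8neg and Tspan8pos libraries.

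The other ligands and receptors of the family comprised 12 listed genes, of which 10 were in the table and tested. Between Tspan8pos and Tspan8neg, 4 were called higher in MHCIIlo, and 4 higher and 1 lower in MHCIIhi, beside 21.7% and 18.8% of all tested genes called. Between MHCIIhi and MHCIIlo, 3 were called higher in Tspan8neg and 0 in Tspan8pos, where edgeR gave 3 at an unadjusted p under 0.05 and 23.0% and 7.51% of all tested genes were called. Their median log2 fold change was 0.99, 0.97, 1.01 and -0.02 in these 4 comparisons.

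Il1f5, the IL-36 receptor antagonist gene next to Il1f6, was at 1.40 and 7.31 CPM in Tspan8negMHCIIlo, 7.90 and 13.7 CPM in Tspan8negMHCIIhi, 143 and 135 CPM in Tspan8posMHCIIhi, and 165 and 202 CPM in Tspan8posMHCIIlo. It rose with Tspan8 by 5.33 ± 0.45 in MHCIIlo (edgeR adjusted p = 3.64e-05) and by 3.64 ± 0.37 in MHCIIhi (adjusted p = 0.000133). The first value was 4.65 without Tspan8negMHCIIlo replicate 1 and 7.02 without replicate 2. Il1f10, which encodes IL-38, had 0 counts in both Tspan8negMHCIIlo libraries and 14.8 and 14.5 CPM in Tspan8posMHCIIlo, at least 18.9-fold higher against a floor of 3 counts per library. Il1f8 (IL-36β) was near the floor throughout, with at most 3.96 CPM.

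Il1rap, the accessory chain used by the IL-1, IL-33 and IL-36 receptors, was at 6.74 to 8.53 CPM in the 4 Tspan8neg libraries and 27.8 to 32.9 CPM in the 4 Tspan8pos libraries. It rose by 2.18 ± 0.24 in MHCIIlo (edgeR adjusted p = 1.22e-05) and 1.8 ± 0.22 in MHCIIhi (adjusted p = 3.39e-05). Gm20319 overlaps it, so its reads may not all be its own. Il1r1 was at 81.7 and 46.9 CPM in Tspan8negMHCIIlo, 62.8 and 67.2 CPM in Tspan8negMHCIIhi, 138 and 133 CPM in Tspan8posMHCIIhi, and 111 and 124 CPM in Tspan8posMHCIIlo. Its log2 difference of 0.89 in MHCIIlo (edgeR adjusted p = 0.00558) was under the fold limit, and its call in MHCIIhi at 1.06 (adjusted p = 0.00162) was lost in 4 of the 8 fits that left out 1 library, which ranged from 0.94 to 1.10.

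The receptor genes Il1rl1 and Il18r1 were called higher with MHCII in Tspan8neg cells. Il1rl1, the IL-33 receptor, was at 4.49 and 3.54 CPM in Tspan8negMHCIIlo, 19.1 and 19.7 CPM in Tspan8negMHCIIhi, 6.57 and 6.10 CPM in Tspan8posMHCIIhi, and 4.40 and 3.28 CPM in Tspan8posMHCIIlo. It was thus highest in the subset where Il33 was at 2.50 and 5.13 CPM, and rose by 2.28 ± 0.33 with MHCII in Tspan8neg (edgeR adjusted p = 0.00012). Its lower level in Tspan8pos among MHCIIhi cells, -1.61 (adjusted p = 0.000933), lost its call in 3 of the 8 fits without 1 library (-1.71 to -1.55). Il18r1 was at 56.7 and 50.7 CPM in Tspan8negMHCIIlo and 126 and 124 CPM in Tspan8negMHCIIhi, a rise of 1.22 ± 0.16 (adjusted p = 5.16e-05). Il18rap, the other IL-18 receptor gene listed, was not called there, at -0.03 ± 0.63 (edgeR adjusted p = 0.974). Its mean was 2.47 CPM in Tspan8negMHCIIlo and 2.41 CPM in Tspan8negMHCIIhi. Il18bp, which encodes a soluble inhibitor of IL-18, ranged from 13.9 to 29.5 CPM with no call.

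**Figure D5:**
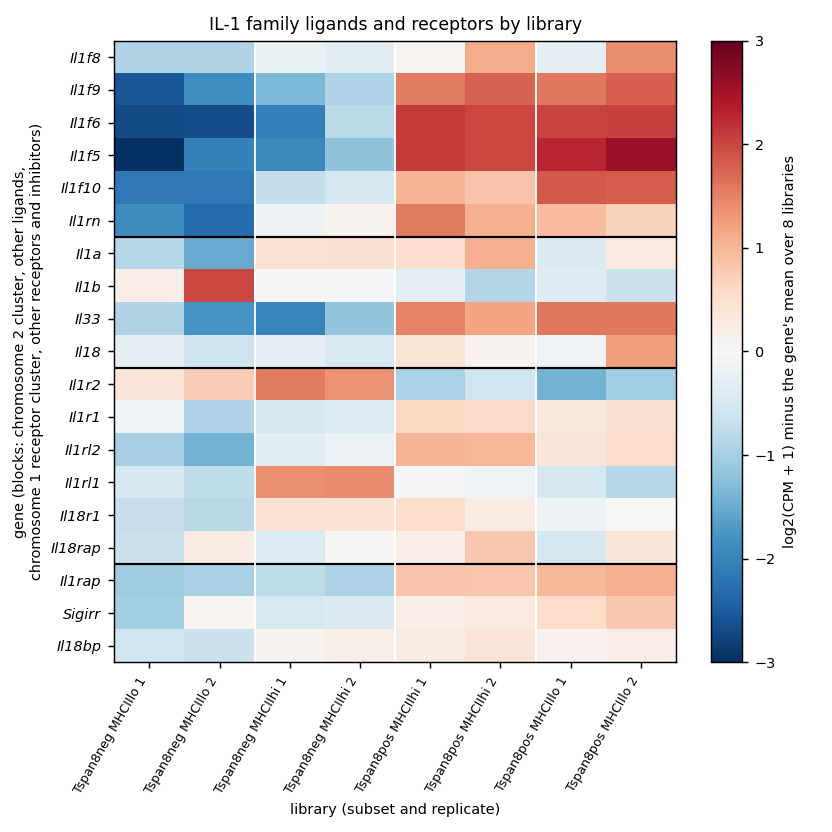
Heat map of log2(CPM + 1) minus the mean of the gene over the 8 libraries, for 19 genes of the family in blocks for the chromosome 2 ligand cluster, other ligands, the chromosome 1 receptor cluster, and other receptors and inhibitors. The ligand cluster is high in all 4 Tspan8pos libraries, whereas the receptor cluster holds genes that go with Tspan8 in opposite directions.

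By position, 3 members lie in 1 run of family genes on chromosome 2. In GRCm38 the genes Il1f8, Il1f9, Il1f6, Il1f5, Il1f10 and Il1rn follow each other on the plus strand between 24153161 and 24351494, a span of 198 kb with no other tested gene between them. In each Tspan8 comparison 5 of these 6 were called higher, all but Il1f8, beside 12.2% of all tested genes in MHCIIlo and 11.1% in MHCIIhi. The Il1f10 call in MHCIIhi, at 1.97 (edgeR adjusted p = 0.00242), was lost in 4 of the 8 fits without 1 library (1.77 to 2.08), with DESeq2 and after thinning. Within Tspan8neg 4 were called higher in MHCIIhi, beside 13.3% of all tested genes, and 2 of these, Il1f6 and Il1f9, lost their call without single libraries as given above. Of the 6 nearest tested genes outside the run, 1 was called in each Tspan8 comparison, Psd4 at 1.51 and 1.64, and 1 with MHCII in Tspan8neg, Pax8 at 5.05. The agonists Il1a (129299610 to 129309972) and Il1b (129364570 to 129371139) lie on the minus strand of the same chromosome, far from the run, and were not called in those comparisons.

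The receptor genes Il1r2 and Il1rl2 lie in a run of 7 tested genes on chromosome 1 between 40074079 and 40551705, which spans 478 kb. Among these, Gm38070 lies within Il1r1 on the same strand and could share reads with it. This run was mixed. In MHCIIlo, Il1rl2 and the predicted gene Gm38070 were called higher and Il1r2 lower in Tspan8pos, and in MHCIIhi, Il1r1 and Il1rl2 were called higher and Il1r2 and Il1rl1 lower. Neighbouring receptor genes thus differed with Tspan8 in opposite directions. The flanking gene Slc9a4 was called higher in both, at 3.45 and 3.40.

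Genes whose levels ran most like those of a member were found by the root mean square difference of centred log2 CPM over the 8 libraries, among 13067 genes. For Il1f6 these were 2010109I03Rik (0.131), the chemokine gene Cxcl5 (0.201) and the desmosomal gene Dsc1 (0.202), and for Il1f9 the growth factor gene Areg (0.164), Aldh3b2 (0.173) and Acsl1 (0.203). For Il33 they were Foxq1 (0.213), Slc46a3 (0.231) and Tmem125 (0.250), and for Il1rn Gm12352 (0.125), Mfap3l (0.208) and Metrnl (0.234). Il1rl2 ran most like Sh2d4a (0.109), Thap6 (0.126) and Creg1 (0.138). Those nearest to Il1r2 included the mitotic genes Aurka (0.158) and Racgap1 (0.192), with Insyn1 (0.175) between them. For Il1b the nearest were D630045J12Rik (0.276), Tbc1d10c (0.311) and Snap25 (0.312), at a greater distance than for any other of these members. Between members, Il1f6 and Il1f9 were 0.468 apart and Il1rn and Il1rl2 0.535, in log2 units. These likenesses describe 8 libraries of 4 subsets and were not tested.

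Markers of mTEC subtypes also differed between the subsets. Summed over 5 cornified cell markers, the level was 57.3 to 138 CPM in the 4 Tspan8neg libraries and 2656 to 3144 CPM in the 4 Tspan8pos libraries, and 5 of 5 were called higher in both Tspan8 comparisons (beside 12.2% and 11.1% of all tested genes). Summed over 4 tuft cell markers it was 837 to 1130 CPM in Tspan8negMHCIIlo, 127 to 139 CPM in Tspan8negMHCIIhi, 874 to 1001 CPM in Tspan8posMHCIIhi and 5267 to 5419 CPM in Tspan8posMHCIIlo, and 4 of 4 were likewise called higher in both Tspan8 comparisons. In MHCIIhi against MHCIIlo, 4 of 4 tuft markers were called lower in Tspan8neg and in Tspan8pos (beside 9.62% and 2.69% of all tested genes). No member was called lower there. The part of either cell type in the members' values was not tested.

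Of 23 listed genes for processing and release of the cytokines, 19 were tested, and 6 were called higher in Tspan8pos among MHCIIlo, and 5 higher and 1 lower among MHCIIhi, with medians of 0.24 and 0.26, beside 21.7% and 18.8% of all tested genes called. With MHCII, 8 were called higher and 1 lower in Tspan8neg, and 5 higher in Tspan8pos, with medians of 0.96 and 0.72, beside 23.0% and 7.51% of all tested genes. Nlrp10, which encodes an NLR protein of skin, was at 1.40 to 7.18 CPM in the Tspan8neg and 23.7 to 32.9 CPM in the Tspan8pos libraries, and rose by 3.65 ± 0.37 in MHCIIlo (edgeR adjusted p = 7.03e-06) and 2.06 ± 0.31 in MHCIIhi (adjusted p = 0.000178). Gsdma, an epithelial gasdermin gene, was at 8.43 to 36.9 CPM in the Tspan8neg and 114 to 148 CPM in the Tspan8pos libraries, and rose by 3.03 ± 0.39 in MHCIIlo (adjusted p = 0.00045). Without Tspan8negMHCIIlo replicate 1 and without replicate 2, the MHCIIlo value was 3.21 and 4.43 for Nlrp10 and 2.50 and 3.98 for Gsdma.

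Of 17 signalling genes, 1 was called higher and 1 lower with Tspan8 in MHCIIlo, and 5 higher in MHCIIhi, with medians of 0.16 and 0.27, beside 21.7% and 18.8% of all tested genes called. With MHCII, 2 were higher and 4 lower in Tspan8neg and 0 were called in Tspan8pos, where edgeR gave 3 at an unadjusted p under 0.05, with medians of -0.10 and -0.06, beside 23.0% and 7.51% of all tested genes. Irak2, a kinase of the receptor complex, was at 38.8 and 43.4 CPM in Tspan8negMHCIIlo, 110 and 96.5 CPM in Tspan8negMHCIIhi, 272 and 232 CPM in Tspan8posMHCIIhi, and 192 and 161 CPM in Tspan8posMHCIIlo. This is the order of subsets seen for Il1rn. It rose with Tspan8 by 2.10 ± 0.16 in MHCIIlo (edgeR adjusted p = 5.64e-07) and 1.29 ± 0.15 in MHCIIhi (adjusted p = 1.99e-05). Myd88, the shared adaptor, was instead lowest in Tspan8negMHCIIhi, at 27.7 and 26.7 CPM against 58.9 to 85.1 CPM in the other 6 libraries.

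Of 20 genes known to be induced by IL-1 in other cells, 8 were called higher and 1 lower with Tspan8 in MHCIIlo, and 6 higher and 2 lower in MHCIIhi, with medians of 0.72 and 0.10, beside 21.7% and 18.8% of all tested genes called. With MHCII, 11 were higher and 3 lower in Tspan8neg and 3 higher and 1 lower in Tspan8pos, with medians of 1.52 and 0.58, beside 23.0% and 7.51% of all tested genes. The neutrophil chemokine gene Cxcl5 was at 0 and 0.707 CPM in Tspan8negMHCIIlo, 1.04 and 3.72 CPM in Tspan8negMHCIIhi, 39.2 and 35.6 CPM in Tspan8posMHCIIhi, and 31.3 and 31.3 CPM in Tspan8posMHCIIlo. It rose by 3.84 ± 0.41 in MHCIIhi (edgeR adjusted p = 1.78e-05; 3.24 without Tspan8negMHCIIhi replicate 1 and 5.06 without replicate 2), and in MHCIIlo, with 286 against 3 counts, the ratio was 81.4 (exact 95% counting interval 27.6 to 397.0). Cxcl3, of the same chemokine group, rose by 4.38 ± 0.24 in MHCIIlo (adjusted p = 3.41e-08) and 2.22 ± 0.18 in MHCIIhi (adjusted p = 8.98e-07). Saa3, an acute phase gene, was at 1319 and 1665 CPM in Tspan8posMHCIIhi and at 19.1 to 171 CPM in the other 6 libraries.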

How the data were processed

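RNA was sequenced from 8 libraries of sorted mTECs, 2 in each of 4 subsets, grouped by the GEO labels. Estimated counts of each gene were deposited by the authors as 1 table, on mouse build mm10. The submitters' processing notes name Salmon 1.8.0 and DESeq2 1.30.0. The deposited values were whole numbers, so rounding changed nothing. The labels name a strand-specific kit and the study's methods pre-amplified, tagmented cDNA, so genes that overlap on opposite strands are uncertain. Identifiers were matched to GENCODE vM21 symbols (25336, or 99.5%; 130 unmatched), with positions in GRCm38. The 9 members and all gene lists were chosen with earlier results of these data known.

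Tests ran in edgeR 4.0.16, with limma 3.58.1 and R 4.3.3: filterByExpr, TMM, a robust quasi-likelihood fit of all 8 libraries with 1 coefficient per subset, and two-sided tests adjusted by Benjamini-Hochberg over 17006 genes. Each SE was taken from the F statistic, as the size of the log2 difference over the root of F. The biological coefficient of variation was 15.5%. Named are all members, their receptors and, per pathway list and comparison, at most the 4 called genes with the greatest change. The examples printed, and the genes near the 2 clusters, were picked from the results after their values were seen. Likeness was computed among tested genes whose mean reached 5 CPM. The steps were tested on simulated data. Alternatives were DESeq2 1.42.0, its size factors, no filter, at least 10 counts in 4 libraries, only the 4 libraries compared, a replicate block, an adjusted p under 0.05, no fold limit, longest transcripts for lengths and each library left out. Thinning all libraries to 1941518 counts was added after seeing the data. The study's other assays are not analysed here.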

Additional observations from a re-analysis of the deposited data

Results flagged for a closer look

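For 7 of the named genes, the difference between Tspan8pos and Tspan8neg was itself different in MHCIIlo and in MHCIIhi, by edgeR's test of the interaction. Of all tested genes, 5.39% were called in that test. Genes without counts in either library of a subset, such as Il1f10 and Gsdmc, were left out of this list. Values are the Tspan8 effect in MHCIIlo minus that in MHCIIhi on the log2 scale. Il1f6 at 2.03 ± 0.61 (adjusted p = 0.0486) and Il1f9 at 1.32 ± 0.40 (adjusted p = 0.0488) were not called. Il1rn was the only member among the 7, at 1.56 ± 0.27 (adjusted p = 0.00366). Its level rose 7.54-fold with Tspan8 in MHCIIlo and 2.55-fold in MHCIIhi, and its call ended in 4 of the 8 fits that left out 1 library, as given above.

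The chemokine genes Cxcl2 and Cxcl3 had interactions of 2.66 (edgeR adjusted p = 5.26e-05) and 2.15 (adjusted p = 0.000888), which stayed called when any 1 library was left out. Cxcl2 was at 18.5 and 27.3 CPM in Tspan8negMHCIIlo, 205 and 215 CPM in Tspan8negMHCIIhi, 159 and 153 CPM in Tspan8posMHCIIhi, and 114 and 104 CPM in Tspan8posMHCIIlo. It was thus highest in Tspan8negMHCIIhi, where Il1r2 was the only member with its highest mean.

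For 4 genes of the signalling and processing lists the Tspan8 effect was lower in MHCIIlo than in MHCIIhi. These were Irak3 at -3.38 (edgeR adjusted p = 0.00342), Nlrp1b at -2.04 (adjusted p = 0.00161), Myd88 at -1.29 (adjusted p = 0.0058) and Mapk14 at -1.24 (adjusted p = 0.00435). All 4 were lowest in the Tspan8negMHCIIhi libraries. Their interaction calls were less firm, lost in 5 of 8 fits without 1 library for Irak3 (-4.31 to -2.87), 4 for Nlrp1b (-2.32 to -1.74), 6 for Myd88 (-1.54 to -1.03) and 6 for Mapk14 (-1.43 to -1.04).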

How the results depend on the processing

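Of 936 alternative values for the members' log2 fold changes, 859 kept direction and side of the threshold, 36 lost the call, 27 gained one and 14 changed sign. For other named genes, 15 of 1251 changed sign. The 6 members called in each Tspan8 comparison kept their calls under every alternative tried. With 1 library left out, members called numbered 6 to 7 for Tspan8 in MHCIIlo, 6 to 6 in MHCIIhi, 1 to 4 for MHCII in Tspan8neg, 0 to 0 in Tspan8pos, 0 to 2 for the interaction, 4 to 4 for Tspan8posMHCIIlo against Tspan8negMHCIIhi, and 6 to 8 for Tspan8posMHCIIhi against Tspan8negMHCIIlo. For MHCII in Tspan8neg the count rose from 3 to 5 with no filter, at an adjusted p under 0.05, or with no fold limit, and for the interaction from 1 to 3 at 0.05. The looser limits add calls by construction, and the cause of the rise with no filter was not tested.

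Same-numbered libraries deviated together weakly, with correlations of 0.0121 to 0.124, all positive. These do not settle whether equal numbers share mice, and the main fit did not pair the samples. With the replicate block, members called were 7, 6, 3, 0, 1, 4 and 8 in the order above, against 6, 6, 3, 0, 1, 4 and 8, the added call being Il1b.

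All sign changes were in values that were not called. With 1 library left out, the ranges that cross 0 were -0.40 to 0.35 for Il1b, -0.0023 to 0.072 for Il1f6 and -0.14 to 0.091 for Il1f9 with MHCII in Tspan8pos, -0.81 to 0.39 for Il33 with MHCII in Tspan8neg, and -0.59 to 0.61 for the Il33 interaction. Among other genes they were -0.21 to 0.13 for Il18r1 with Tspan8 in MHCIIhi, -0.52 to 0.79 for Il18rap and -0.34 to 0.46 for Il1r1 with MHCII in Tspan8neg, and -0.60 to 1.18 for Il18rap and -0.32 to 0.14 for Il1rl1 with Tspan8 in MHCIIlo. Thinning turned Il1b with MHCII in Tspan8pos to -0.88, the Il33 and Il1r2 interactions to -0.39 and -0.19, Il18rap with MHCII in Tspan8neg to 0.55 and Il1rl1 with Tspan8 in MHCIIlo to 0.69. Il18rap with MHCII in Tspan8neg was also 0.051 with DESeq2, 0.053 with its size factors, 0.039 with no filter, 0.0085 with at least 10 counts in 4 libraries and 0.045 with only the 4 libraries compared. The cause of these changes was not tested. Depth limits Il1a, Il18, Il1f8 and the Tspan8negMHCIIlo values of Il1f6.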
